A study of Mus musculus with 6 samples.

Results

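Etv1, Etv4, Etv5, Spry1, Spry2, Spry4, Spred1, Spred2, Dusp4 and Dusp6 are genes that ERK signalling switches on and that mark its output. They were taken by gene symbol from a table of FPKM values, a unit that corrects fragment numbers for transcript length and library size, and all 10 were found among its 45038 rows. The table covered 6 mouse samples, each called a cell below. Circulating tumor cells (CTCs), which are tumor cells taken from blood, made up the first group (3 samples), and tumor cells, whose sample titles carry the tag GBM, made up the second (3 samples). Mice 1157, 1168 and PDGF1 each gave 1 sample of each kind. Strain, genotype, age and treatment, and how the tumors arose, are not given in the sources used here. The labels write single cell beside the CTCs only, so a tumor cell sample may hold more than 1 cell. Where 3 values are given for CTCs or for tumor cells, they follow the order of mice 1157, 1168 and PDGF1.

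Growth factor receptors pass their signal through the small GTPase Ras to the kinases Raf, MEK and ERK. Active ERK turns on a slow set of target genes that includes the PEA3 transcription factors Etv1, Etv4 and Etv5, and genes whose products damp the pathway: Sprouty and Spred proteins act upstream, around Ras and Raf, and dual-specificity phosphatases take the phosphates off ERK itself. In gliomas and in the glial progenitors they resemble, PDGF and EGF receptor signalling is a common source of ERK activity, and Capicua (gene Cic) is a repressor of the Etv genes that ERK relieves.

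On FPKM as listed, both cells of mouse 1168 carried most of what was measured of these genes. In the CTC of that mouse, Spry2 (32.6 FPKM), Etv5 (21.8), Etv1 (15.8) and Dusp6 (11.8) led, and 9 of the 10 genes stood at 1 FPKM or more. In its tumor cell Spry2 (29.9), Etv1 (7.09) and Dusp6 (6.58) led, and 7 of the 10 stood at that level. In the other 4 cells, only Etv1 in the CTC of mouse 1157 (6.39 FPKM) and Dusp6 in the tumor cell of mouse PDGF1 (1.17) reached 1 FPKM. All genes together summed to 727351 (CTC) and 615548 (tumor cell) FPKM in mouse 1168, and to 46973 to 236427 in the other 4. Named protein-coding genes made up 85.4% and 72.2% of the sum in mouse 1168, and 11.9% to 51.8% in the other 4. Levels set side by side between cells thus depend on the scaling. No gene of the 10 differed between CTCs and tumor cells past the threshold, and 0% of the 4165 genes tested did. Only 2 of the 10 were among those tested. CTC and tumor cell values overlapped for every one of the 10. Of the genes tested, 0.264% had all CTCs above and 1.30% all CTCs below the tumor cells.

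**Figure D1:**
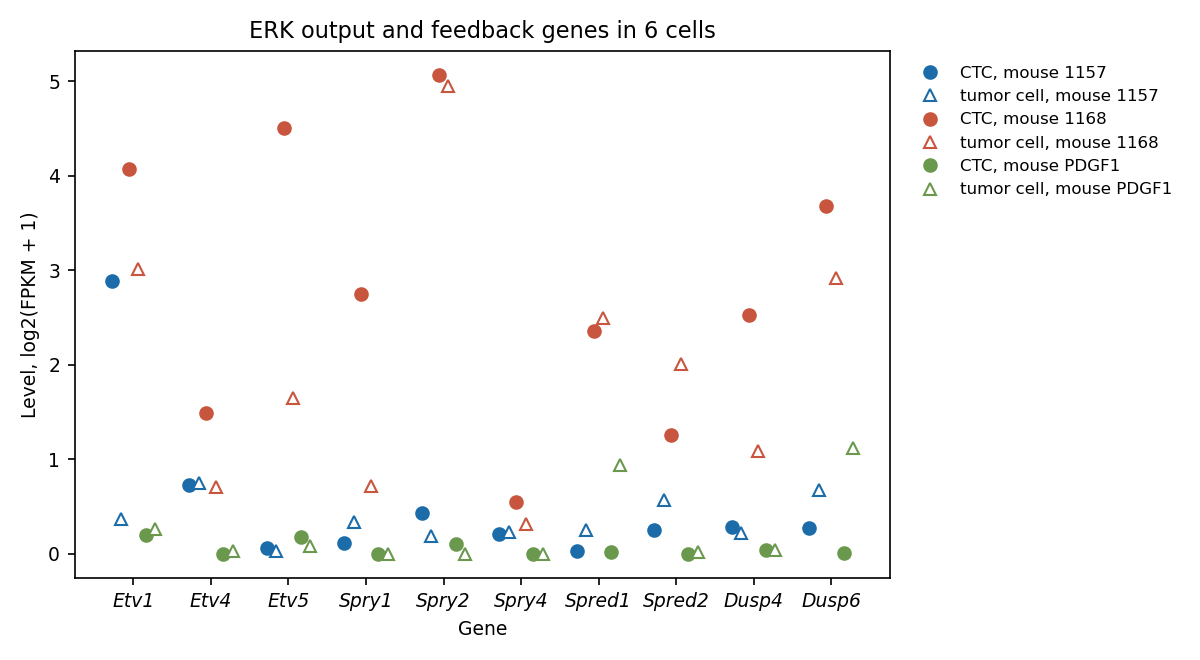
Level of each of the 10 genes, as log2(FPKM + 1), in the CTC (filled circles) and the tumor cell (open triangles) of mice 1157, 1168 and PDGF1. Both cells of mouse 1168 stand above the other 4 cells for most genes; for Etv4 the tumor cell of mouse 1168 (0.638 FPKM) lies below both cells of mouse 1157.

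The low values rest on few fragments. Genes with a single annotated transcript piled up at the FPKM that 1 fragment gives, and this gave an estimated depth, in units of 1000000 fragments, of 24.7, 29.3 and 39.6 for the CTCs and 10.7, 51.6 and 38.1 for the tumor cells. With these depths and the longest annotated transcript of each gene, the 10 genes held an estimated 64 to 3046 fragments each in the CTC of mouse 1168 and 61 to 3221 in its tumor cell. In the CTC of mouse PDGF1 they held at most 38 each, and 4 of them were listed at 0. Fragments from amplified RNA are not independent molecules, so such counts overstate the precision.

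**Figure D2:**
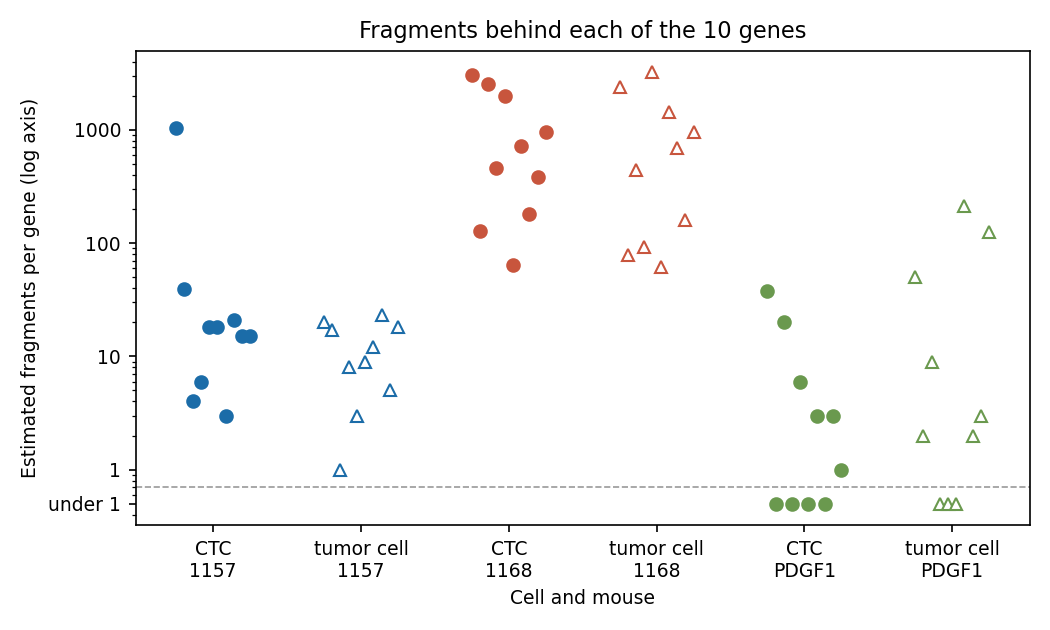
Estimated fragments behind each of the 10 genes (points, log axis) in each cell, with genes listed at 0 drawn below the dashed line. The cells of mouse 1168 hold 61 or more for every gene, and most genes in the other cells hold fewer than 50.

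The cells differed in what else they held. Mouse 1168 gave 9702 genes at 1 FPKM or more from its CTC and 11239 from its tumor cell, and the other 4 cells gave 1486 to 4078. Housekeeping genes (12 listed) summed to 4149 and 6595 FPKM in mouse 1168, to 1463 and 27.3 in mouse 1157 and to 8.87 and 19.3 in mouse PDGF1. Oligodendrocyte progenitor genes, a glial lineage list used to check the tumor label, stood at 1 FPKM or more for 10 of 11 in both cells of mouse 1168, for 4 of 11 in both cells of mouse 1157, and in mouse PDGF1 for 0 of 11 (CTC) and 1 of 11 (tumor cell). Platelet and red cell genes summed to 1.09, 68.3 and 0.335 FPKM in the CTCs, of which Itga2b alone gave 68.0 in mouse 1168. Leukocyte genes summed to 13.6, 2.09 and 3.32 FPKM in the CTCs and to 8.92, 260 and 4.24 in the tumor cells. Endothelial and mural genes summed to 20.8, 3.08 and 0.375 FPKM in the CTCs and to 78.5, 33.6 and 1.88 in the tumor cells. In the CTC of mouse 1157, the leukocyte gene Laptm5 was at 9.81 FPKM and the endothelial gene Vwf at 19.4. Each was the only gene of its list at 1 FPKM or more in that cell (1 of 9 and 1 of 10). Receptor genes of the nose, silent in such cells, had a 99th percentile of 0.770, 0.149 and 2.70 FPKM in the CTCs and of 1.95, 1.27 and 7.10 in the tumor cells. This is the background against which low values are read below. Fewer copies per cell and a poorer library cannot be told apart in such data.

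Among the PEA3 factors, Etv5 showed the widest gap in mouse 1168. Its FPKM was 0.0407, 21.8 and 0.130 in the CTCs and 0.0239, 2.15 and 0.0609 in the tumor cells. Etv5 lies on chromosome 16 from 22381309 to 22439719 (minus strand, GRCm38). It was thus high in the CTC of mouse 1168, 10.1-fold above the tumor cell of that mouse, and below 0.2 FPKM in the cells of the other mice. The CTC value rests on an estimated 2530 fragments and the tumor cell value on 440.

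Etv1, on chromosome 12 from 38779380 to 38870484 (plus strand), was the only member above 1 FPKM in more than 1 CTC. Its FPKM was 6.39, 15.8 and 0.146 in the CTCs and 0.287, 7.09 and 0.199 in the tumor cells. In mouse 1157 the CTC stood 22.3-fold above the tumor cell on FPKM, an estimated 1036 fragments against 20, and in mouse 1168 2.23-fold above it. Scaling the cells to the same sum over named protein-coding genes moved the log2 difference in mouse 1157 from 2.52 to 1.35. In the CTC of mouse 1157 Etv1 ranked at percentile 97.0 among named protein-coding genes, above its percentile of 84.1 in the CTC of mouse 1168. It ranked at 84.2 in the CTC of mouse PDGF1 too, at 0.146 FPKM and under the receptor percentile of 2.70 there. A high rank in these cells thus need not mean a high level. In mouse PDGF1 both cells were low, and the sign of their difference turned with the scaling. Etv4, on chromosome 11 from 101769742 to 101785371 (minus strand), was at 0.660, 1.81 and 0 FPKM in the CTCs and at 0.676, 0.638 and 0.0226 in the tumor cells. It reached 1 FPKM in the CTC of mouse 1168 alone.

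Promoter sequence is shown for Etv5 and Dusp6 because these 2 held the most copies of the octamers that Capicua binds or of a variant set added later. Etv5 held copies of the variant set only. RefSeq (GRCm38.p6) gave 9 promoter windows for 7 of the 10 genes, each from 250 bases before to 50 bases after a transcription start. Both strands were searched for TGAATGAA, TGAATGGA, TCAATGAA and TCAATGGA. At least 1 was present in 2 of the 9 windows, those of Spry2 and Dusp6, and in 3.84% of all 32851 windows. The Dusp6 window held 2, and 0.183% of all windows held 2 or more. The same octamers with a final G, a set added after the sequences were seen, occurred 3 times in the second Etv5 window and in no other of the 9. Of all windows, 3.44% held at least 1, and only 1, this window itself, held 3 or more. As the set was chosen after the sequences were seen, these shares are not a test. The second Etv5 window lies in an intron of longer Etv5 transcripts. CCGGAA, a core of ETS sites, occurred in the Spry2 window alone, against 14.9% of all windows. These motifs do not overlap each other. A match is a description of the letters and not a binding site. In the 250 bases before each start below, capitals mark the octamers on either strand.
Etv5, second start, chr16:22438369-22438618, minus strand: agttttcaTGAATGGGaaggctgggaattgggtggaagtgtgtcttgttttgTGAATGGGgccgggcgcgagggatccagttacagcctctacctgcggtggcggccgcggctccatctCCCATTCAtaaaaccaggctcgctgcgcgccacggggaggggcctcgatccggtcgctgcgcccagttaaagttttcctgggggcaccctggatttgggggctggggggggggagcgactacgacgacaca
Dusp6, chr10:99262981-99263230, plus strand: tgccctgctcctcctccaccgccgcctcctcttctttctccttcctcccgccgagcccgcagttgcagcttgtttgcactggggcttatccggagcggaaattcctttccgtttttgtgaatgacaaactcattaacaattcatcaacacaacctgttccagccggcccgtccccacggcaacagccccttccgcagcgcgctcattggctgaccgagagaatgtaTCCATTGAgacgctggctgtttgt
The second Dusp6 copy starts at base 2 after the start, outside the stretch printed. Etv5 differed most between the cells of mouse 1168, while Dusp6 differed 1.79-fold there.

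**Figure D3:**
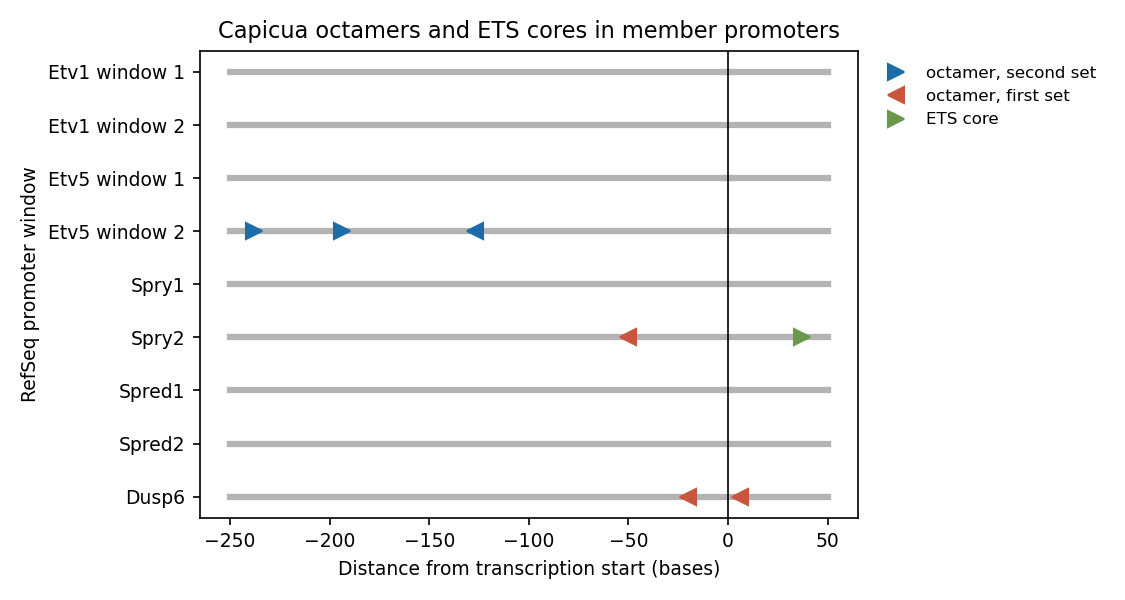
Position of Capicua octamers and ETS cores (arrows, pointing along the strand) in the 9 RefSeq promoter windows, by distance from the transcription start in bases. The first set of octamers ends in A. The second, added after the sequences were seen, ends in G. The second Etv5 window holds 3 of the second set and the Dusp6 window 2 of the first.

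The Sprouty genes encode inhibitors that bind adaptor proteins upstream of Ras. Spry2, on chromosome 14 from 105891947 to 105896819 (minus strand), was at 0.348, 32.6 and 0.0735 FPKM in the CTCs and at 0.137, 29.9 and 0 in the tumor cells. It was the highest member in both cells of mouse 1168 and nearly equal between them, at a ratio of 1.09. Spry1, on chromosome 3 from 37639947 to 37644598 (plus strand), was at 0.0809, 5.73 and 0 FPKM in the CTCs and at 0.267, 0.645 and 0 in the tumor cells. In mouse 1168 its CTC was 8.89-fold above the tumor cell, where the gene lay under the receptor percentile of 1.27. The gene Gm42922 overlaps an exon of Spry1 on the other strand, and the sources used here do not say whether counting used strand. Spry4 was low throughout, at 0.157, 0.459 and 0 FPKM in the CTCs and 0.175, 0.247 and 0 in the tumor cells.

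The Spred genes encode membrane-bound relatives of Sprouty that bring the Ras inhibitor neurofibromin to the membrane. Spred1, on chromosome 2 from 117121374 to 117182279 (plus strand), was at 0.0187, 4.13 and 0.0120 FPKM in the CTCs and at 0.190, 4.63 and 0.924 in the tumor cells. Spred2, on chromosome 11 from 19924375 to 20024026 (plus strand), was at 0.191, 1.38 and 0 in the CTCs and at 0.482, 3.03 and 0.0114 in the tumor cells. Both genes were thus lower in the CTC than in the tumor cell of each mouse, also under both rescalings and both other pseudocounts. The sizes were small in mouse 1168, with Spred1 1.12-fold and Spred2 2.19-fold higher in the tumor cell. In mouse 1157 and mouse PDGF1 every Spred value lay under the receptor percentile of its cell. The Spred1 value in the tumor cell of mouse PDGF1 still rests on an estimated 212 fragments, against 3 in its CTC.

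The phosphatase genes split between mice. Dusp6, a cytoplasmic phosphatase specific for ERK, on chromosome 10 from 99263231 to 99267489 (plus strand), was at 0.210, 11.8 and 0.00891 FPKM in the CTCs and at 0.595, 6.58 and 1.17 in the tumor cells. The CTC was the higher cell in mouse 1168 and the lower cell in the other 2 mice. In mouse PDGF1 the CTC held an estimated 1 fragment and the tumor cell 125, and the tumor cell value lay under the receptor percentile of 7.10. Dusp4, a nuclear phosphatase, on chromosome 8 from 34807297 to 34819894 (plus strand), was at 0.215, 4.77 and 0.0273 FPKM in the CTCs and at 0.169, 1.12 and 0.0285 in the tumor cells. It was 4.25-fold higher in the CTC of mouse 1168, where the tumor cell value lay under the receptor percentile of 1.27, and close between the cells of the other mice.

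Over the 3 mice, CTCs and tumor cells were compared with limma on log2(FPKM + 1), CTC minus tumor cell, among the 4165 genes that reached 1 FPKM in at least 3 of the 6 cells. Of the 10 genes, 2 met that filter. Etv1 had a log2 difference of 1.17 (SE 1.75, adjusted p = 0.99994, limma), higher in the CTC in 2 of 3 mice, and Dusp6 one of -0.25 (SE 1.37, adjusted p = 0.99994, limma), lower in the CTC in 2 of 3 mice. Neither of the 2 was called, against 0% of all genes tested, and neither had an unadjusted p under 0.05, against 0.168% of genes (7 of 4165). Without the filter all 10 entered, and again 0 of the 10 and 0% of the 32679 genes were called. There the differences ran from -0.43 for Spred1 to 1.17 for Etv1, with Etv5 at 0.99 (SE 1.32, unadjusted p = 0.470, the smallest of the 10). Both tested genes overlapped between groups, where 0.264% of genes tested had all CTCs above and 1.30% all CTCs below the tumor cells. The SD of Etv5 on this scale was 2.54 in CTCs and 0.92 in tumor cells (n = 3 each).

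Summed over the 10 genes, the CTCs held 8.31, 100.2 and 0.397 FPKM and the tumor cells 3.002, 56.0 and 2.42. The means were 36.3 ± 55.5 (SD, n = 3) and 20.5 ± 30.8 (SD, n = 3), which differed by less than either SD (exact permutation test, two-sided, p = 0.7, smallest possible 0.1). Leaving out the CTC of mouse 1168 turned the difference from 15.8 to -16.1 FPKM. The number of the 10 genes at 1 FPKM or more was 1, 9 and 0 in the CTCs and 0, 7 and 1 in the tumor cells (exact permutation test, two-sided, p = 0.9). Genes above the receptor percentile of their own cell numbered 1, 10 and 0 in the CTCs and 0, 6 and 0 in the tumor cells. For mouse 1168 that cutoff was 0.149 (CTC) and 1.27 (tumor cell). The median named protein-coding gene passed it in the CTC, at 0.288, but not in the tumor cell, at 0.981. The counts of 10 and 6 thus rest on unequal cutoffs and do not show a difference particular to these genes.

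Within mouse 1168, 9 of the 10 genes reached 1 FPKM in one or both of its cells. The CTC was higher by at least 1 on the log2 scale for 4 of the 9 (Etv5 by 2.85, Spry1 by 2.03, Dusp4 by 1.44 and Etv1 by 1.06), against 22.7% of all 12396 genes measured in that mouse. It was lower by at least 1 for 0 of the 9, against 24.9%. The median over the 9 was 0.78, and over all genes measured it was 0.04. Etv4 (0.78) and Dusp6 (0.75) were also higher in the CTC, Spry2 (0.12) and Spred1 (-0.13) differed little, and Spred2 (-0.76) was lower. The PEA3 genes took 39.3% of the CTC's FPKM sum over the 10 genes and 17.6% of the tumor cell's, and the Sprouty genes 38.7% and 55.0%. Scaling the cells to the same sum over named protein-coding genes moved the median over all 12396 genes measured in that mouse from 0.04 to -0.40. Spry2 then turned to -0.35, and Etv1 was at 0.64. With a pseudocount of 5 in place of 1, only Etv5 passed 1 on the log2 scale. These are differences between 1 library and 1 other, with no replicate check.

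**Figure D4:**
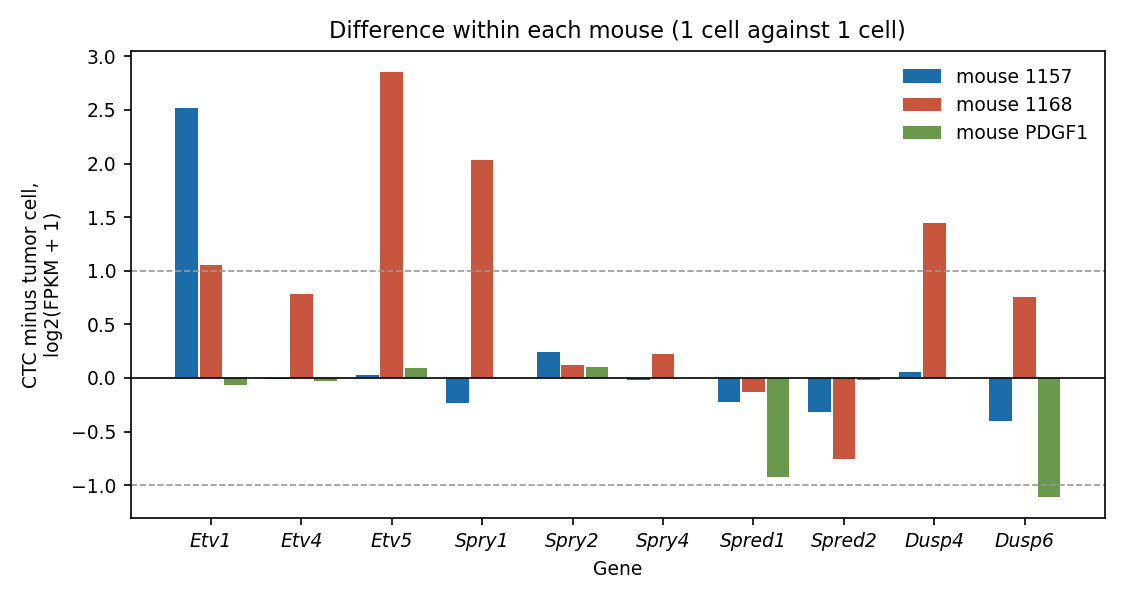
Difference between the CTC and the tumor cell of each mouse for the 10 genes, on the log2(FPKM + 1) scale, with dashed lines at -1 and 1. In mouse 1168 Etv5, Spry1, Dusp4 and Etv1 pass 1; in mouse 1157 Etv1 does (2.52), and in mouse PDGF1 Dusp6 passes -1 (-1.11).

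The other mice gave 1 gene each to compare. In mouse 1157 Etv1 was the only one of the 10 at 1 FPKM or more, and it was higher in the CTC by 2.52, where 29.0% of all genes measured were higher and 37.1% lower by at least 1. Scaled to the same sum over named protein-coding genes, Etv1 was at 1.35 there and the median of all genes measured at -4.11. In mouse PDGF1 Dusp6 was the only one, and it was lower in the CTC by 1.11, where 23.7% of all genes were higher and 59.9% lower. The median over all genes was -0.62 in mouse 1157 and -1.18 in mouse PDGF1, so a lower value in the CTC of mouse PDGF1 was the common direction.

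Other cell type markers moved with the difference in mouse 1168. Of 12 microglia and macrophage genes, 11 reached 1 FPKM in its tumor cell and 5 in its CTC, with sums of 2348 and 227 FPKM. In the CTC Aif1 and C1qa were at 0, while Lyz2 was at 174 FPKM, Tyrobp at 28.4 and Ctss at 19.4. Those sums in the other 4 cells ran from 1.94 to 25.2. The oligodendrocyte progenitor list summed to 497 FPKM in its CTC against 233, and mitochondrially encoded genes to 6856 against 13755. Of the 11 progenitor genes, 8 were higher and 2 lower by at least 1 on the log2 scale. Those lower were Sox10, at 6.54 against 18.3, and Gpr17, at 0.113 against 10.3. Astrocyte genes summed the other way, to 169 against 388, of which S100b gave 108 and 364. Of 5 astrocyte genes measured, 1 was higher and 2 were lower by at least 1. The part of these in the differences of the 10 genes was not tested.

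The genes above ERK did not follow a single direction in mouse 1168. Of 18 measured members of the cascade from adaptor to kinase, 4 were higher by at least 1 in the CTC, a share near the 22.7% of all genes measured there, and 2 were lower, against 24.9% (median 0.29). The Ras gene Nras was at 87.0 FPKM in the CTC against 29.0, and Hras at 243 against 88.9. Mapk3, which encodes the kinase ERK1, was at 5.05 against 29.4, and the adaptor gene Shc1 at 0.324 against 3.62. Over all mice 9 cascade genes were tested, 3 with a positive and 6 with a negative difference and 0 called. The lowest unadjusted p was that of Mapk3, at a log2 difference of -1.39 (SE 1.57, adjusted p = 0.99994, limma), followed by Hras (2.74), Grb2 (-0.65) and Araf (0.54). Hras was high in the CTC of mouse 1157 as well, at 220 FPKM against 0.858, and low in both cells of mouse PDGF1.

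Growth factor receptor genes showed 4 of 9 higher and 2 of 9 lower by at least 1 in the CTC of mouse 1168 (median 0.99), against 22.7% and 24.9% of all genes, so the lower share was near that of all genes. The neurotrophin receptor gene Ntrk2 was at 47.8 FPKM against 3.60 and the PDGF receptor gene Pdgfra at 5.28 against 1.42. Met, the receptor of hepatocyte growth factor, was at 0.0666 against 8.64, and Pdgfrb at 0 against 1.62. Over the mice 3 receptor genes were tested and 0 called, with Ntrk2 at a log2 difference of 1.59, Fgfr1 at -1.08 and Fgfr2 at -0.18.

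A list drawn up as restraints on Ras and repressors of the Etv genes had 0 of 7 higher and 3 of 7 lower by at least 1 in that CTC (median -0.69), against 22.7% and 24.9% of all genes. The 3 were Errfi1, whose product blocks the EGF receptor kinase, at 0.169 FPKM against 7.73, Cic at 37.8 against 84.1, and Lgals3, at 36.1 against 450.2. Lgals3 encodes galectin-3, a sugar-binding protein that macrophages make in quantity and that is not known as a brake on Ras; without it the count is 2 of 6 lower. Nf1, which encodes neurofibromin, and Pebp1, which encodes a Raf inhibitor, were at 8.65 and 286 against 4.22 and 220. Cic went the other way in mouse 1157, at 5.81 in the CTC against 1.21. It was at 1.67 against 2.202 in mouse PDGF1. Over the mice 5 genes were tested and 0 called, with Errfi1 at -1.75, Lgals3 at -2.05, Pebp1 at 1.90 and Rasa1, a GTPase-activating protein, at -0.59.

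Target genes of ERK outside the 10 were mostly lower in the CTC of mouse 1168. By at least 1 on the log2 scale, 11 of 16 measured were lower and 2 higher (median -1.52), against 24.9% and 22.7% of all genes. The immediate early gene Ier3 was at 3.19 FPKM in the CTC against 97.0, and Egr1 at 0.294 against 22.4. Those higher were Ccnd1, cyclin D1, at 244 against 25.1 and Trib2, a pseudokinase gene, at 45.6 against 1.80. Over the mice 3 were tested and 0 called, with Ccnd1 at 2.77, Phlda1 at 0.69 and Ier2 at -0.27. Related phosphatase and ETS genes outside the 10 had 7 of 13 lower and 2 of 13 higher by as much (median -1.15), against the same shares of all genes. The early phosphatase genes Dusp1 and Dusp2 were at 0.862 and 0.157 FPKM against 33.5 and 6.78, while Dusp16, a phosphatase acting mainly on JNK, was at 34.1 against 10.99 and the ETS gene Elk4 at 16.4 against 7.56. Over the mice Dusp16 and Elk4 were the 2 tested, at 0.73 and 0.44. Of the 10 genes, Dusp4 and Dusp6 were thus higher in the CTC of this mouse, on FPKM, where Dusp1 and Dusp2 were lower. The difference between these groups of genes was not tested.

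**Figure D5:**
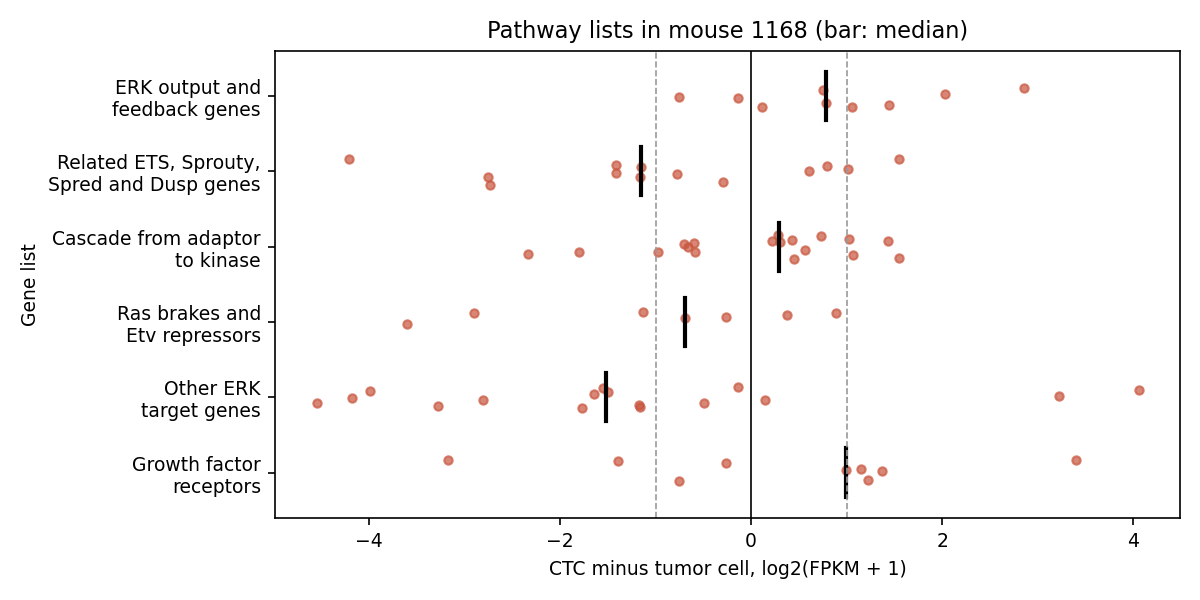
CTC minus tumor cell of mouse 1168 on the log2(FPKM + 1) scale for each measured gene (points) of 6 lists, with the median as a bar and dashed lines at -1 and 1. The median is 0.78 for the 9 measured ERK output and feedback genes and -1.52 for the other ERK target genes.

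Across the 6 cells, Dusp4 and Spry1 followed Etv5 most closely among the 10 genes, with a Pearson r of 0.992 and 0.983 on log2(FPKM + 1), and Spred2 least, at 0.637. Outside the 10 genes, the named protein-coding genes most like their mean were Arl2bp, Llph, Hmgcs1, Tdrd7 and Glrx2 (r of 0.997 each over 6 cells). Such values are common here, since 1428 of 3553 genes had r above 0.9, and they largely restate that the cells of mouse 1168 stood apart from the others.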

How the data were processed

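The deposited table holds FPKM made by the authors, 1 column per cell. STAR 2.4.2a, Cufflinks 2.2.1 and GRCm38 appear in the submitters' processing notes. RNA was amplified in repeated rounds before stranded libraries were made, per the labels' protocols. Rows whose name had become a date (27) or was repeated (207) were left out, which left 44804. GENCODE mouse release 21 (GRCm38) gave gene types, coordinates and transcript lengths, with 18860 named protein-coding genes and 1447 olfactory and vomeronasal receptor genes.

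Groups were compared with limma 3.58.1 (R 4.3.3), using log2(FPKM + 1) and a variance trend; SEs thus follow the trend over all genes. Tests were two-sided, Benjamini-Hochberg adjusted over all genes tested, threshold 0.05. The step was tested on simulated data. Fold changes on this scale understate the change of low genes. Exact permutation tests used 1 value per cell. Whole-table values came from Python 3.11.15. Nothing says whether cells of different mice were handled separately, so p-values measure only the spread between these cells.

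Mice pair the cells by the labels. The deviations from the group means of a mouse's CTC and tumor cell correlated at 0.178 (1157), 0.689 (1168) and 0.428 (PDGF1). Between cells of different mice the correlations ran from -0.622 to 0.422. The highest of those was between the CTC of PDGF1 and the tumor cell of 1157. The members, lists and tests were chosen with earlier results of these data known. Named genes are all members and, of each other list, up to 4 of smallest p and up to 2 per direction in mouse 1168, plus Cic, Pdgfra, markers and the 5 most similar genes. Alternatives were other pseudocounts, filters, scalings, no trend, the mouse as replicate block, and leaving out cells or mice. The depth estimate, the second octamer set and the block with quantile normalization were added later.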

Additional observations from a re-analysis of the deposited data

How the results depend on the processing

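None of the 10 genes was called under any of the 19 other fits, in those fits that held them. With the mouse as replicate block limma called 1 gene of 4165, Snora2b, in place of 0, and Etv1 kept its difference of 1.17 (unadjusted p = 0.156, the smaller of the 2 members). With the block and quantile normalization together it called 0 (165 at an unadjusted p under 0.05, smallest adjusted p = 0.208). No member met the filter without the CTC of mouse 1168, without its tumor cell or without both. Leaving out cells or mice called 0 genes each time, and moved Etv1 between 0.69 and 2.26, Dusp6 between -0.70 and 0.40, and the median of the members tested between -0.18 and 1.79. Each end of that last range is 1 gene, the only member tested in that fit: Dusp6 without mouse 1157 and Etv1 without mouse PDGF1. Dusp6 turned without the CTC of mouse 1157 (0.27), without that of PDGF1 (0.40) and with a pseudocount of 5 (0.044). Rescaling to named protein-coding genes moved the median of all genes tested from -0.06 to -1.06, turned Etv4 (-1.25), Spry1 (-0.50), Dusp4 (-0.035) and the members' median (-0.50, from 0.46), and moved Dusp6 from -0.25 to -2.96 and Spred1 from -0.43 to -2.95. The filter was applied again after rescaling, so 16395 genes and 9 members entered in place of 4165 and 2, and the medians cover different genes. Etv4, Spry1, Dusp4 and Spred1 are set against the fit with no filter. Rescaling over all genes, with 11998 genes and 9 members past the filter, moved that median of all genes to -0.68 and turned Etv4 (-0.35). It put Dusp6 and Spred1 at -1.97 each and the members' median at 0.14. The cause was not tested.

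The summed FPKM difference of 15.8 ran from -16.1 to 33.8 when cells or mice were left out, and was -78.7 after rescaling to named protein-coding genes; the paired exact test gave p = 0.5. The difference of 0.667 in genes at 1 FPKM or more ran from -2.17 to 2.83, was 0 without mouse 1168, -2.33 after rescaling over all genes and -1 over named protein-coding genes. Within mouse 1168, a pseudocount of 5 left 1 member higher by at least 1 in place of 4, and 1 was lower with a pseudocount of 0.1 and after rescaling to named protein-coding genes, in place of 0. That rescaling made 8 members lower in mouse 1157 in place of 0, and 2 higher and 3 lower in mouse PDGF1 in place of 0 and 1, while a pseudocount of 5 left 0 lower there. On FPKM only 1 member was measured in mouse 1157 and 1 in mouse PDGF1, and the rescaling brought in others. All genes measured there on FPKM had rescaled medians of -4.11 (mouse 1157) and -2.78 (mouse PDGF1), so lower was the common direction. In the cells of mice 1157 and PDGF1 most members rest on fewer than 50 estimated fragments, although both PDGF1 cells were estimated deeper than the CTC of mouse 1168.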
